A study of Mus musculus with 3 samples.

Results

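This account covers the chaperones of the endoplasmic reticulum (ER) and the arms of the unfolded protein response, across the cells of the mouse arcuate nucleus and across diet. The 34 genes were taken by symbol from the 31253 genes listed in each count table. They fall into 11 chaperones and co-chaperones, 4 disulfide isomerases, 7 genes of ER-associated degradation, 4 genes for the sensors and Xbp1, 6 targets of the PERK and ATF4 arm, and 2 translocon subunits. All 34 symbols were found, and Ddit3 stands under 2 identifiers, of which 1 held no UMI.

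The libraries are single-cell RNA sequencing of the arcuate nucleus, a feeding centre in the hypothalamus, from male C57BL/6JRj mice of 5 to 6 weeks. Mice of the 15-day HFHS group ate a high-fat high-sugar diet (58%, of what is not stated) from weaning for 15 days, mice of the 5-day HFHS group ate chow for 10 days and then that diet for 5 days, and mice of the SC group ate standard chow for 15 days. Tissue of 6 mice per diet was pooled into 1 library, so the data hold 3 libraries and no replicate of a diet. All groups share strain, sex and age, and the labels name no genetic change.

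The ER folds the proteins that a cell secretes or places in its membranes. When unfolded proteins build up there, ATF6 is cut to release a transcription factor, IRE1 splices the message of XBP1, and PERK phosphorylates eIF2α, which lowers translation while ATF4 is made. ATF6 and XBP1 are known to raise chaperones, disulfide isomerases and degradation genes, and ATF4 raises amino acid synthesis and stress genes such as Asns, Chac1, Trib3 and Ddit3. In the arcuate nucleus this response has been studied in mice on fat-rich diets, where neurons that make the peptide precursors Pomc and Agrp are known for a heavy secretory load.

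The promoters of the chaperone genes are shown first, since the elements that ATF6 and XBP1 bind define the arm in textbooks. The ER stress element (ERSE) is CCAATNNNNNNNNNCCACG, the related ERSE-II is ATTGGNCCACG, and the element bound by ATF4 with C/EBP proteins (CARE) was searched as TGATGNAA. Both strands were searched for exact matches in windows of 250 bases before to 50 bases after the start of a gene, from RefSeq on GRCm38.p6. Of the 34 genes, 29 had such a window, and Hyou1, Sec61a1, Atf6, Manf and Derl1 had none. An ERSE stood in 8 of the 29 windows (27.6%), against 0.13% of 27025 promoters. ERSE-II stood in 2 (6.9%), against 0.037% of all promoters, and CARE in 4 (13.8%), against 4.06% of all. The shorter CCACG, which both ER stress elements hold, stood in 21 of 29 windows (72.4%), against 32.7% of all promoters. The XBP1 element TGACGTGG was in none of the 29 windows and in 0.607% of all promoters. The members were listed as genes of these arms, so the shares describe that list and are no test of it. A match is only a match of letters.

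The bases before the start of 5 chaperone genes with an ERSE are printed in gene orientation, with the element in capitals. Where the element lies on the other strand it reads as CGTGG, then 9 bases, then ATTGG. Hspa5 encodes BiP, the main ER chaperone, Hsp90b1 encodes GRP94, Calr encodes calreticulin, Dnajc3 encodes the co-chaperone P58IPK, and Pdia6 is a disulfide isomerase. Hsp90b1 has the element on both strands.
Hspa5, chr2:34771840-34772089, plus strand: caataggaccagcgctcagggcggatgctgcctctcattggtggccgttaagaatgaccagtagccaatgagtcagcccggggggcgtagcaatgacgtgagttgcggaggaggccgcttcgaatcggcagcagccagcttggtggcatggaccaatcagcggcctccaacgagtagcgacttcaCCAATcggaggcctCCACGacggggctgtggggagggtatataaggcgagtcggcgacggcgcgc
Hsp90b1, chr10:86705445-86705694, minus strand: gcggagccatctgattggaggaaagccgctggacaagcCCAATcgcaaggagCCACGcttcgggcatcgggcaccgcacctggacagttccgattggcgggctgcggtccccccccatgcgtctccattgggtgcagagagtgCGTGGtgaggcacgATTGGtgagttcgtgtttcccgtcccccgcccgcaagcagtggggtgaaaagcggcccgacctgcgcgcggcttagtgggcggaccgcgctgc
Calr, chr8:84846932-84847181, minus strand: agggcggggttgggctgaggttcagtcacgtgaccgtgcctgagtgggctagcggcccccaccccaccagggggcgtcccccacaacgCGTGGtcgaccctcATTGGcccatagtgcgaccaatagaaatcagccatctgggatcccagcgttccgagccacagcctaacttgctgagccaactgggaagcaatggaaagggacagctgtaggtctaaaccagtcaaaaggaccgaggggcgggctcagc
Dnajc3, chr14:118937682-118937931, plus strand: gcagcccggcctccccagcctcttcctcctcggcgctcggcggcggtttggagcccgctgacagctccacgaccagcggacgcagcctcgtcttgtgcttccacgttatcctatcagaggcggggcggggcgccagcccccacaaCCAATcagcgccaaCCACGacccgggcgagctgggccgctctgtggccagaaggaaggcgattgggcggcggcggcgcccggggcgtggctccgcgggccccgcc
Pdia6, chr12:17266339-17266588, plus strand: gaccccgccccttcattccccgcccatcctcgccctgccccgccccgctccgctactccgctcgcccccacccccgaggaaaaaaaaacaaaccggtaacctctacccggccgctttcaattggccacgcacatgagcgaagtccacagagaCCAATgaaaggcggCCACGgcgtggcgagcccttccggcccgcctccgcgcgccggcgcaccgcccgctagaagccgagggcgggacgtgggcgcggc
The same stretch of Pdia3, the disulfide isomerase ERp57, held no exact ERSE or ERSE-II, and that of Asns, asparagine synthetase, held a CARE shown in capitals.
Pdia3, chr2:121413652-121413901, plus strand: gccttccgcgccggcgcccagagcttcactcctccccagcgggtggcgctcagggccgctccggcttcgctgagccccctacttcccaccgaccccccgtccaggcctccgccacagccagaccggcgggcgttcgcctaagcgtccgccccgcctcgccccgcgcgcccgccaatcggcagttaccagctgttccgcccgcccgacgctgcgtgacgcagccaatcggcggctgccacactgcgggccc
Asns, chr6:7693210-7693459, minus strand: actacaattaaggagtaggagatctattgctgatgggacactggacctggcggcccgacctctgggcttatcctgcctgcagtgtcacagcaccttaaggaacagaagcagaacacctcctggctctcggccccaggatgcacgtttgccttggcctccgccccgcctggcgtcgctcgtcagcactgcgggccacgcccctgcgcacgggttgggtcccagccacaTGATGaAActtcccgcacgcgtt
The other chaperone and degradation genes with an ER stress element are shown by the element alone, read on its own strand. Canx encodes the membrane chaperone calnexin, Creld2 a disulfide isomerase-like protein, Syvn1 the ubiquitin ligase HRD1, Dnajb11 the co-chaperone ERdj3 and Herpud1 a scaffold of that ligase.
Canx, chr11:50325800-50325818: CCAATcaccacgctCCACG
Creld2, chr15:88819520-88819538: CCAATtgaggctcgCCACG
Syvn1, chr19:6046532-6046550: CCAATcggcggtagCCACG
Dnajb11, chr16:22857852-22857862: ATTGGcCCACG
Herpud1, chr8:94386377-94386387: ATTGGgCCACG
Herpud1 also held a CARE, as did Chac1, an enzyme that breaks down glutathione, and Trib3, a pseudokinase that acts in the same arm.
Chac1, chr2:119351049-119351056: TGATGcAA
Trib3, chr2:152344039-152344046: TGATGtAA

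Cells were grouped by clustering without the 34 genes and called X-like from marker genes. The 10 classes compared held at least 100 cells in each library: neuron, astrocyte, tanycyte, ependymal, oligodendrocyte precursor (OPC), committed precursor (COP), oligodendrocyte, microglia, endothelial and pericyte. Libraries had 4825 (SC), 4041 (5-day) and 5157 (15-day) cells after filtering, with median depths of 5131, 5779 and 4130 UMIs per cell. Clusters left unnamed held 7.92%, 8.54% and 10.5% of those cells. Libraries shared between 13 and 85 cell barcodes in pairs, and 51 to 78 of the kept cells of a library carried such a barcode. Levels are counts per 1000000 UMIs of a class and library (CPM), with 95% intervals that cover counting error only.

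In the main fit microglia-like cells had the most members above the other classes, and neuron-like cells the most below. Summed over all 34 genes, the level was highest in OPC-like cells, at 7815, 7134 and 5854 CPM in the SC, 5-day and 15-day libraries, and lowest in neuron-like cells in SC and at 5 days, at 3360 and 3546 CPM. At 15 days the sums of neuron-like, oligodendrocyte-like, pericyte-like and endothelial-like cells lay close together, between 3612 and 3696 CPM. Each class was set against the mean of the other 9 in a fit over the sums of 15464 genes. The 3 libraries, which differ in diet, were the replicates and a block in the fit. The p-values therefore measure how differences between classes vary over these pooled libraries, diet included. Trib3 (158 UMIs in all) and Chac1 (142 UMIs) were too sparse, which left 32 members. In microglia-like cells 26 of 32 members were called higher and 1 lower at an adjusted p under 0.05 (edgeR quasi-likelihood, Benjamini-Hochberg), where 32.0% of all genes were called higher and 33.3% lower. The members' median was 0.65 on the log2 scale, against −0.13 for all genes. Scaled to total UMIs in place of TMM, 17 members were higher and 5 lower in this class, where 3582 of 15464 genes were higher and 7286 lower. With that scaling OPC-like cells had the most members higher, 18.

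**Figure D1:**
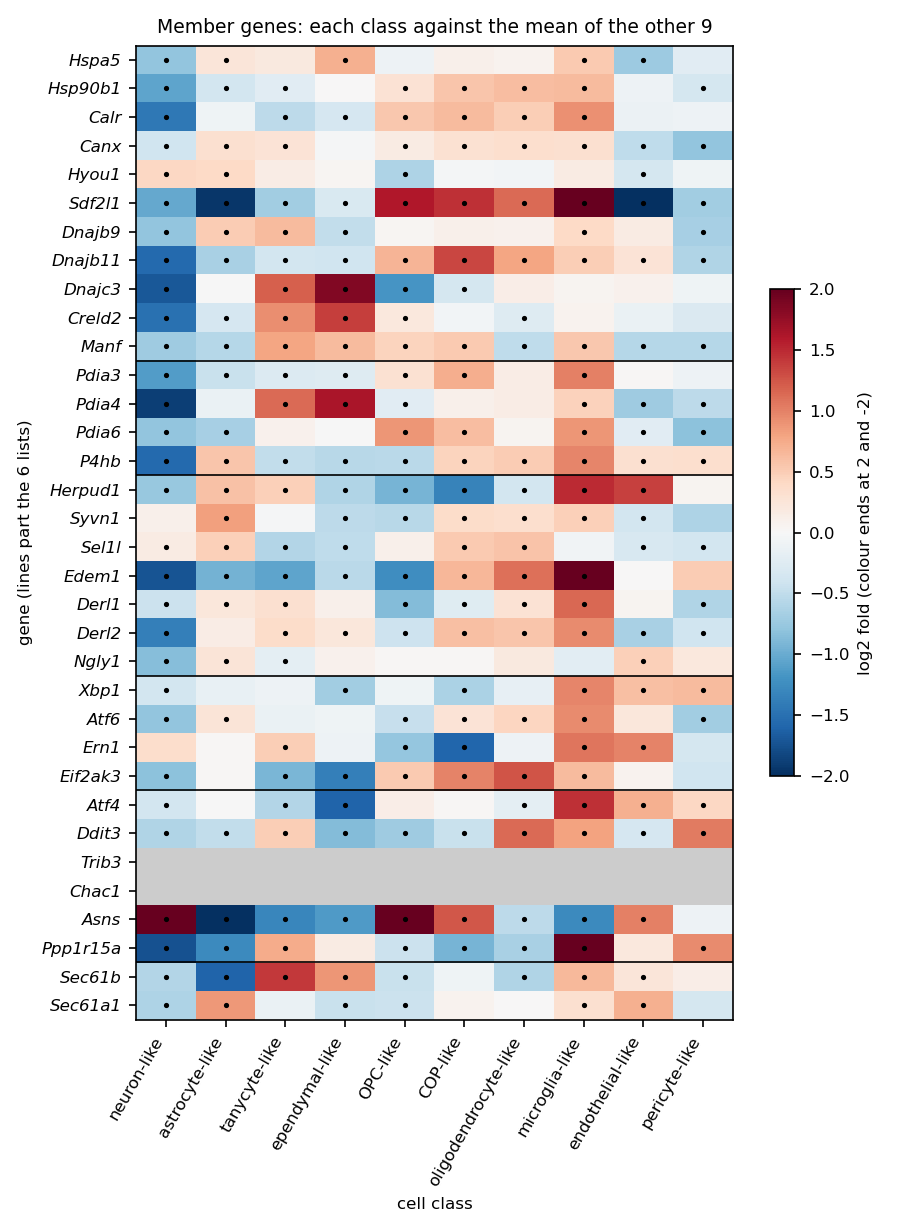
Log2 fold of each of the 34 genes (rows, parted by list) in each cell class (columns) against the mean of the other 9 classes, with dots where the adjusted p was under 0.05 and grey where a gene was not tested. Microglia-like cells had 26 members called higher and neuron-like cells 27 called lower.

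In microglia-like cells 8 of 11 chaperones and co-chaperones, all 4 disulfide isomerases, 5 of 7 degradation genes and all 4 genes for the sensors and Xbp1 were called higher. Edem1, which passes misfolded glycoproteins to degradation, had 106, 128 and 111 CPM there in the SC, 5-day and 15-day libraries, and 8.07 to 9.35 CPM in neuron-like cells. Its log2 fold in microglia-like cells was 3.23 ± 0.09 (SE, adjusted p = 3.7e-33, edgeR). Ppp1r15a, the GADD34 subunit that reverses the phosphorylation of eIF2α, followed at 2.98 ± 0.10 (adjusted p = 3.76e-29, edgeR), and Sdf2l1, a BiP cofactor, at 2.74 ± 0.08 (adjusted p = 7.88e-33, edgeR). Xbp1 stood at 0.97, Atf6 at 0.95, the IRE1 gene Ern1 at 1.07 and the PERK gene Eif2ak3 at 0.63. Atf4 was higher by 1.46, and the member called lower was Asns. Immediate-early genes, which switch on within minutes of a stimulus, tissue dissociation included, stood with these members: all 13 were called higher in microglia-like cells, with a median of 3.37. Their part in the members' levels was not tested.

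Neuron-like cells had 27 of 32 members called lower and 3 higher, where 32.9% of all genes were called lower and 38.2% higher. The median of the members was −0.79, against 0.02 for all genes. Scaled to total UMIs it was −0.35 against 0.45, with 21 lower and 5 higher, where 2991 of 15464 genes were lower and 8213 higher. With barcodes of at most 10% mitochondrial UMIs the median was −0.57 against −0.003. In that setting 25 members were lower and 2 higher, where 4526 of 14933 genes were lower and 5421 higher. Among the 27 called lower first were 10 of 11 chaperones and co-chaperones and all 4 disulfide isomerases. Pdia4, the isomerase ERp72, had 44.5, 42.1 and 41.5 CPM in neuron-like cells of the SC, 5-day and 15-day libraries, with a log2 fold of −1.89 ± 0.09 (SE, adjusted p = 7.22e-23, edgeR). Calr stood at −1.43, Dnajb11 at −1.55, Hsp90b1 at −1.06 and Hspa5 at −0.79. Asns was called higher: it had 48.8, 65.4 and 53.1 CPM, a log2 fold of 2.31 ± 0.11 (adjusted p = 8.64e-24, edgeR). Hyou1, an exchange factor for BiP, and Sel1l, the partner of HRD1, were the other members called higher, at 0.41 and 0.16.

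Within the neuron-like class, clusters named by their leading genes differed in level, so the class values depend on their mix. The Snhg11 cluster described below held 65.4%, 43.7% and 54.4% of the class in the SC, 5-day and 15-day libraries. Hspa5 had 692, 728 and 655 CPM in the SC, 5-day and 15-day libraries in the cluster led by Cartpt, Gal and Pomc, and 349, 281 and 360 CPM in the large cluster led by Snhg11 and Meg3. In the cluster led by Agrp and Npy it had 643, 525 and 430 CPM. Sec61b, the beta subunit of the translocon, had 308, 321 and 269 CPM in the Pomc cluster, against 57.5, 56.5 and 123 CPM in the Snhg11 cluster. Both members were higher in the peptide clusters in every library, as was Hsp90b1, with 707, 705 and 814 CPM in the Pomc cluster against 334, 299 and 413 CPM in the Snhg11 cluster. Sel1l ran the other way, at 88.6, 108 and 95.1 CPM in the Pomc cluster and 168, 166 and 162 CPM in the Snhg11 cluster. The Agrp cluster rests on 6, 32 and 32 cells, and no test was made between clusters.

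Ependymal-like and tanycyte-like cells, which line the ventricle, both had Dnajc3, Creld2, Manf and Pdia4 called higher. In ependymal-like cells 7 members were called higher and 16 lower, where 37.3% of all genes were called higher and 31.1% lower. Dnajc3 had 605, 559 and 547 CPM there in the SC, 5-day and 15-day libraries, with a log2 fold of 1.85 ± 0.06 (SE, adjusted p = 3.27e-31, edgeR). Pdia4 followed at 1.63 and Creld2 at 1.38, and Hspa5 stood at 0.71, while Atf4 was lower by −1.60. In tanycyte-like cells 13 members were higher and 12 lower, where 41.1% of all genes were called higher and 27.7% lower. Sec61b stood at 1.42, Dnajc3 at 1.19 and Pdia4 at 1.13, and Asns at −1.30. Ependymal-like cells also had 12 of the cytosolic heat shock genes called higher and none lower, at a median of 1.09, whose part in the members' levels was not tested.

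Sdf2l1 was called higher in all 3 classes of the oligodendrocyte lineage, and Asns in the precursors. OPC-like cells had 11 members called higher and 15 lower, where 29.9% of all genes were called higher and 27.4% lower. Scaled to total UMIs, 18 members were higher and 4 lower, where 7704 of 15464 genes were higher and 1918 lower. Without the 5-day library 7 members were higher and 13 lower, where 4053 of 15563 genes were higher and 3085 lower. Asns had 50.8, 53.4 and 36.2 CPM there in the SC, 5-day and 15-day libraries, a log2 fold of 2.04 ± 0.14 (SE, adjusted p = 2.48e-17, edgeR), and Sdf2l1 stood at 1.60, with Edem1 at −1.24 and Dnajc3 at −1.18. COP-like cells had 16 higher and 7 lower (29.6% and 29.4% of all genes), with Sdf2l1 at 1.46 and Dnajb11 at 1.33, and with Ern1 at −1.59 and Herpud1 at −1.33. These cells also held 70541, 69796 and 56795 CPM of 18 oligodendrocyte markers in the SC, 5-day and 15-day libraries. OPC-like cells held 1324, 1075 and 1229 CPM of them. The larger COP-like cluster was led by 9630013A20Rik, Nfasc and Mag, so the class may hold cells later than committed precursors. Oligodendrocyte-like cells had 14 higher and 7 lower (34.1% and 31.0% of all genes). Scaled to total UMIs they had 5 higher and 20 lower, where 2889 of 15464 genes were higher and 7855 lower. Eif2ak3 stood at 1.26 in them, Ddit3, the CHOP factor, at 1.13, Sdf2l1 at 1.13 and Edem1 at 1.10.

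Astrocyte-like cells had 12 members higher and 12 lower, where 36.3% of all genes were called higher and 28.6% lower. Asns was lower by −2.26 ± 0.26 (SE, adjusted p = 1.6e-10, edgeR), with 2.34, 1.05 and 4.21 CPM in the SC, 5-day and 15-day libraries, and Sdf2l1 by −1.94, Sec61b by −1.60 and Ppp1r15a by −1.28. All 13 immediate-early genes were also called lower in this class, at a median of −2.61. Endothelial-like cells had 10 higher and 11 lower (30.5% and 30.4% of all genes). Scaled to total UMIs they had 7 and 14, where 4088 of 15464 genes were higher and 5486 lower. Sdf2l1 stood at −2.26 in these cells, Herpud1 at 1.37, Asns at 1.01 and Ern1 at 0.99. Pericyte-like cells had 5 higher and 12 lower (18.3% and 20.9% of all genes). Scaled to total UMIs they had 7 and 8, where 3409 of 15464 genes were higher and 2328 lower. Without the 5-day library 4 members were higher and 5 lower in this class, where 2617 of 15563 genes were higher and 1952 lower. Without the 15-day library 8 were lower, where 2563 of 15579 genes were lower. Its members with the largest folds were Ddit3 at 1.04, Ppp1r15a at 0.94 (not called without the 15-day library), Pdia6 at −0.82 and Canx at −0.79. Trib3 was highest in endothelial-like cells, at 8.94, 9.82 and 1.85 CPM (28, 25 and 3 UMIs) in the SC, 5-day and 15-day libraries. Chac1 was highest in neuron-like cells, at 2.51, 6.95 and 5.53 CPM (11, 31 and 20 UMIs).

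The question of diet was whether the ER chaperones and the response arms differ after 5 or 15 days of HFHS. A gene was compared in a class when it had at least 50 UMIs over both libraries, and was called when the log2 ratio of CPM was at least 0.32 in size and the 95% counting interval of the ratio excluded 1. With 1 library per diet there is no test, a call describes these libraries, and the spread between mice is unknown. Both HFHS libraries are set against the same SC library.

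After 15 days on HFHS, chaperones and disulfide isomerases stood lower than in SC in most glial, ventricular and vascular classes, while Atf4 and Ddit3 were called in no class. Of 300 pairs of a member and a class, 70 (23.3%) were called lower, against 9.82% of pairs of all genes, and 4 (1.33%) were called higher, against 5.98% of pairs of all genes. The members' median was below that of all genes in 9 of 10 classes, all but the neuron-like class. With cells thinned to 1000 UMIs each, 34 pairs were called lower. Thinning leaves fewer UMIs for every gene, and the share of all genes is not given for it, so this count cannot be set against the 70. The members' median in thinned cells was again below that of all genes in 9 of 10 classes.

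**Figure D2:**
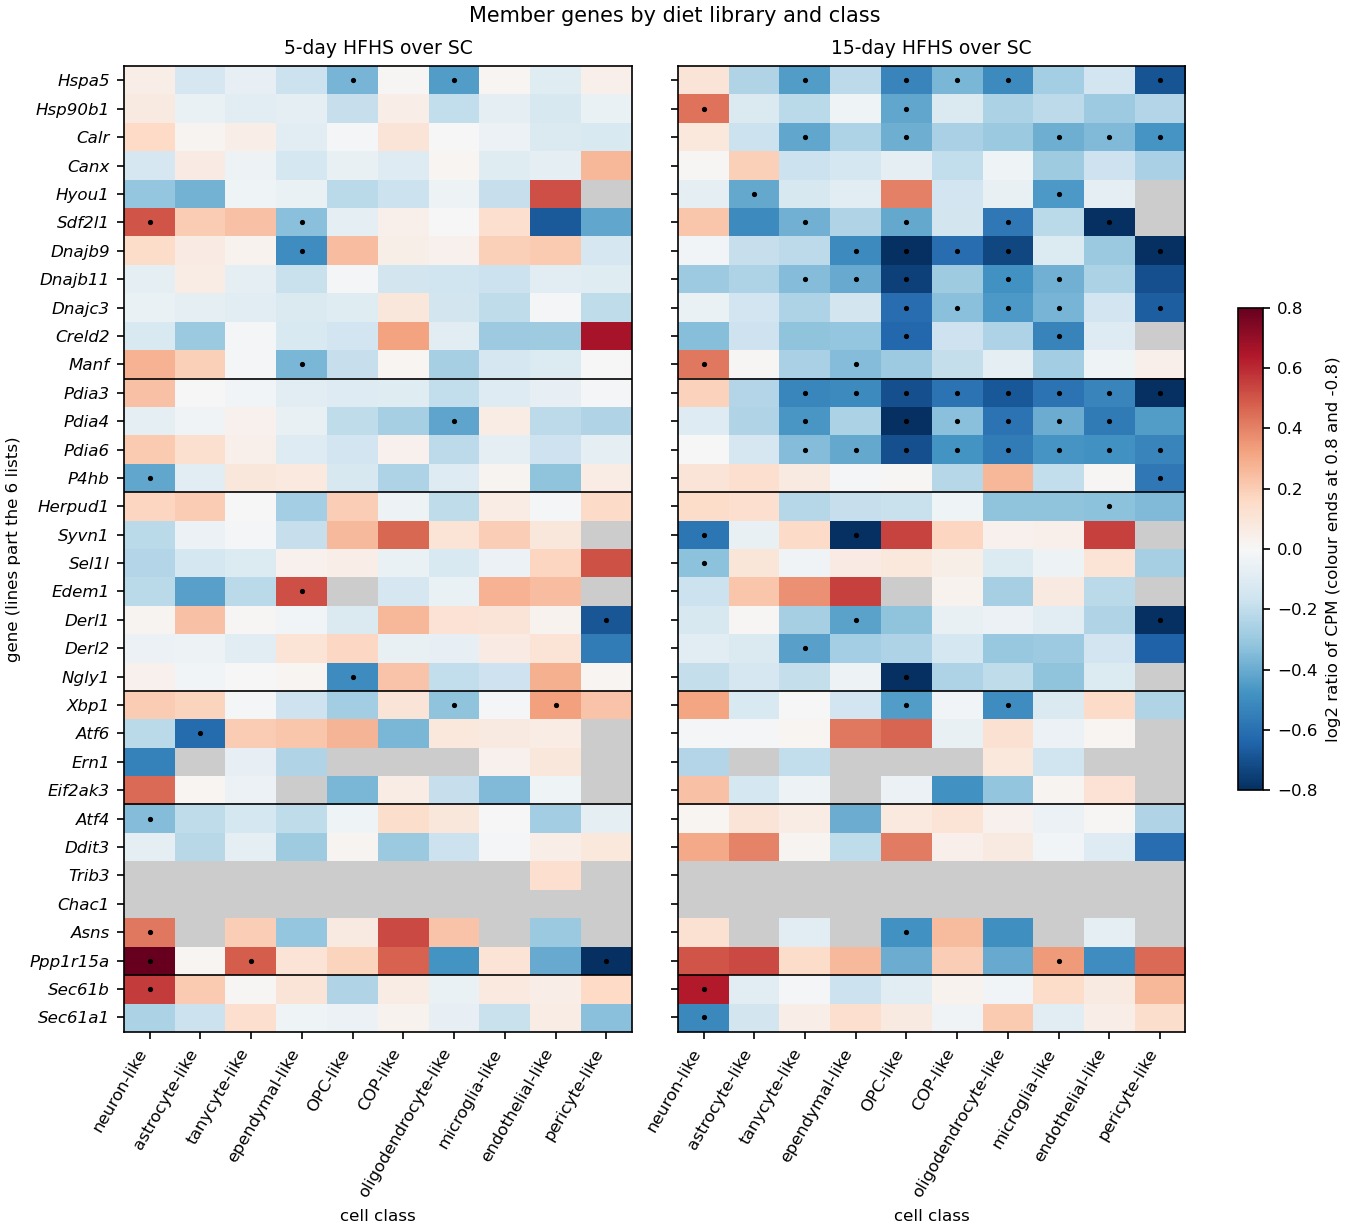
Log2 ratio of CPM in the 5-day (left) and the 15-day (right) HFHS library over the SC library, for the 34 genes (rows, parted by list) and 10 classes (columns). Dots mark called ratios and grey marks genes with too few UMIs. At 15 days 70 squares were called lower and 4 higher.

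OPC-like cells had the most calls, with 14 of 30 members lower (8.40% of all genes). Their median was −0.36 and that of all genes −0.06, and it was −0.40 in thinned cells. Pericyte-like cells had 8 of 22 members lower (10.0% of all genes) at a median of −0.46, against −0.10 for all genes. Oligodendrocyte-like cells had 9 of 32 lower (7.10% of all genes) and tanycyte-like cells 8 of 32 (6.23% of all genes), with medians of −0.26 and −0.19. Ependymal-like cells had 7 of 29 (6.91% of all genes), COP-like cells 6 of 31 (7.18% of all genes) and endothelial-like cells 6 of 31 (7.78% of all genes). Microglia-like cells had 8 of 31 lower (8.53% of all genes) at a median of −0.21, but −0.02 in thinned cells, where the median of all genes was −0.0019. In astrocyte-like cells 1 of 30 members was lower (3.65% of all genes), and the median was −0.12, against −0.01 in thinned cells.

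The lowest ratios shared by many classes were those of disulfide isomerases, which form and rearrange disulfide bonds. Pdia3 was called lower in 8 classes. In OPC-like cells it had 441 CPM at 15 days against 719 CPM in SC, a log2 ratio of −0.71 (95% interval −0.84 to −0.57). In tanycyte-like cells it had 244 CPM at 15 days against 350 CPM in SC, a log2 ratio of −0.52 (−0.60 to −0.45), and in pericyte-like cells 239 against 477 CPM. The 5-day library stood near SC in these classes, with 670, 344 and 473 CPM. The exceptions were astrocyte-like cells, with 266 CPM at 15 days against 313 CPM in SC, and neuron-like cells, with 246 against 216 CPM, neither of them called.

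Pdia6 was called lower in the same number of classes and Pdia4 in 6. Pdia6 had 464 CPM at 15 days against 757 CPM in SC in OPC-like cells, and 165 against 244 CPM in oligodendrocyte-like cells. Pdia4 had 85.2 CPM at 15 days against 148 CPM in SC in OPC-like cells, and 165 against 228 CPM in tanycyte-like cells. P4hb, which encodes PDI itself, differed from the other isomerases: it was called in pericyte-like cells alone, at 97.7 CPM against 145 CPM in SC, and its median log2 ratio over classes was 0.0085. Over the 10 classes the medians of Pdia3, Pdia6 and Pdia4 were −0.56, −0.48 and −0.42, and −0.52, −0.39 and −0.30 in thinned cells. Of the 3266 genes compared in every class, 0.0612% had a lower median than Pdia3, 0.367% than Pdia6 and 0.949% than Pdia4.

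**Figure D3:**
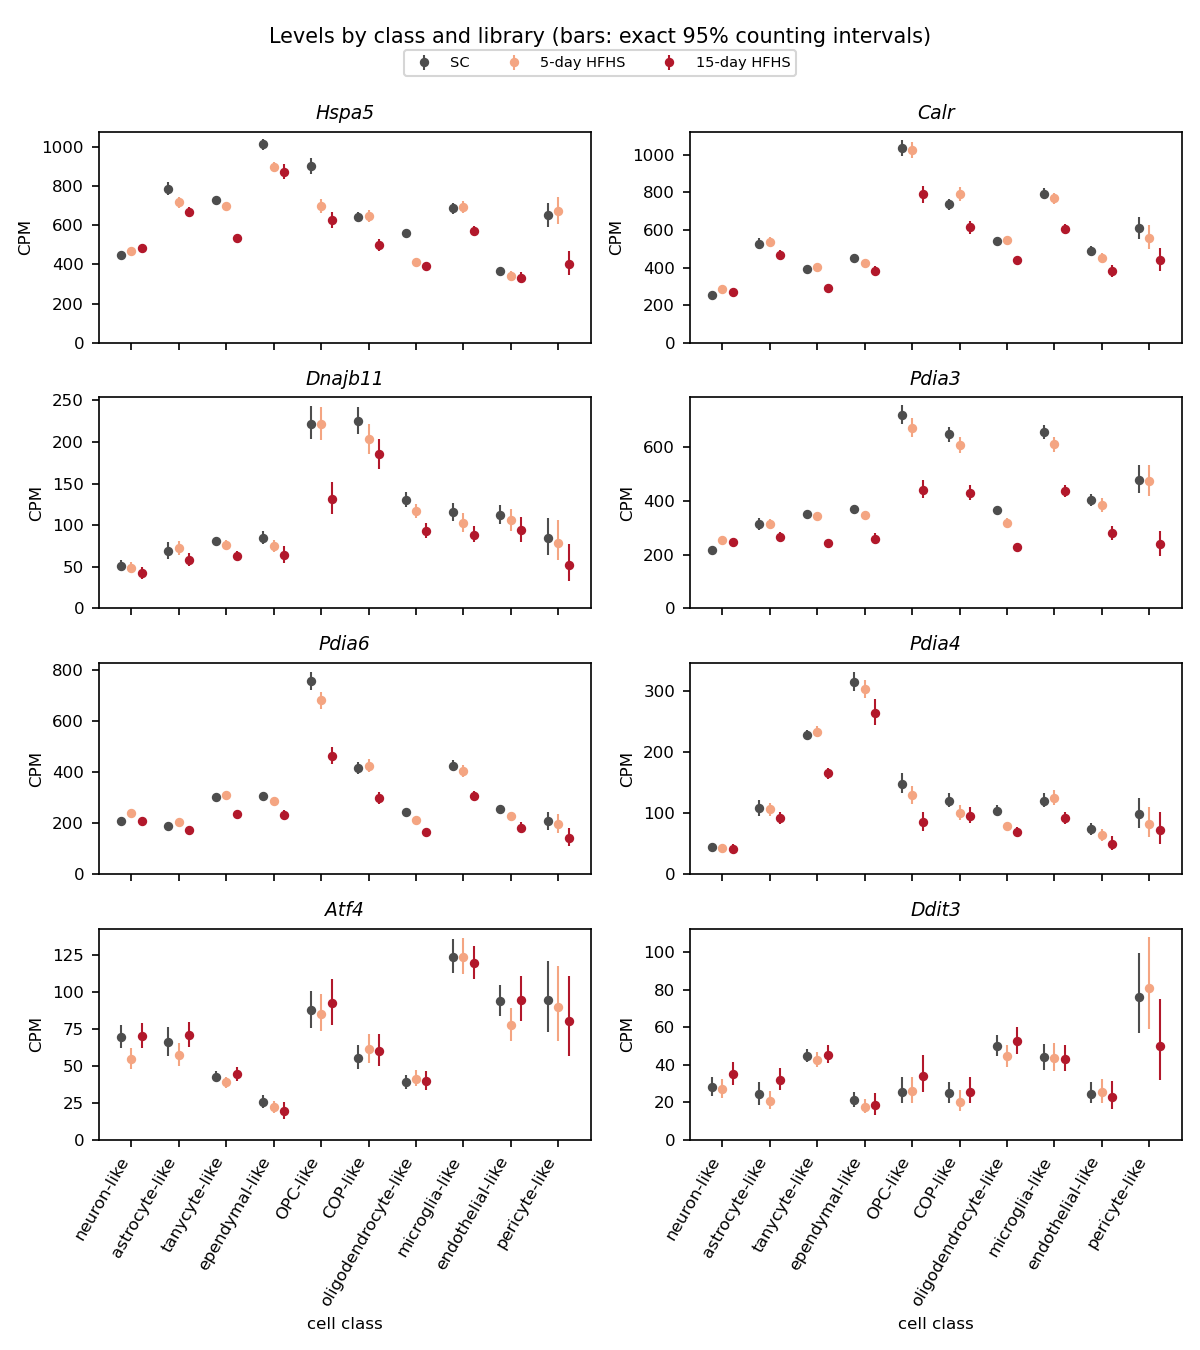
Levels in CPM of 8 members by class, in the SC (grey), 5-day (light) and 15-day (dark red) libraries, with exact 95% counting intervals. Pdia3 in OPC-like cells stood at 719, 670 and 441 CPM in these libraries, while Atf4 stood at 87.6, 85.4 and 92.6 CPM.

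Among chaperones, Hspa5, Calr, Dnajb9, Dnajb11 and Dnajc3 were each called lower in 5 classes and Sdf2l1 in 4. Hspa5 had 537 CPM at 15 days against 731 CPM in SC in tanycyte-like cells, a log2 ratio of −0.44 (95% interval −0.50 to −0.39). In OPC-like cells it had 625 CPM at 15 days against 901 CPM in SC, and the 5-day library, at 697 CPM, was on the side of the 15-day one. In pericyte-like cells Hspa5 had 404 against 652 CPM. Calr, the lectin chaperone that works with Pdia3, had 603 CPM at 15 days against 792 CPM in SC in microglia-like cells, and 789 against 1036 CPM in OPC-like cells. Its membrane-bound relative Canx was called in no class.

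Of the BiP co-chaperones, Dnajb11 had 132 CPM at 15 days against 222 CPM in SC in OPC-like cells, a log2 ratio of −0.75 (95% interval −0.996 to −0.51). Dnajb9, the cochaperone ERdj4, had 50.3 CPM at 15 days against 103 CPM in SC there, but its ratio was 0.25 in thinned cells, where it rests on few UMIs. Dnajc3 had 85.2 CPM at 15 days against 130 CPM in SC in OPC-like cells, and 117 against 161 CPM in oligodendrocyte-like cells. Sdf2l1 had 8.04 CPM at 15 days against 16.3 CPM in SC in endothelial-like cells, and 59.3 against 88.3 CPM in oligodendrocyte-like cells. Creld2 had 37.6 CPM at 15 days against 54.6 CPM in SC in microglia-like cells, and Hyou1 had 19.8 against 27.2 CPM there. Hyou1 was also the member called in astrocyte-like cells, at 32.9 CPM against 43.7 CPM in SC. Manf, a secreted ER stress factor, had 305 CPM at 15 days against 388 CPM in SC in ependymal-like cells.

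Genes of ER-associated degradation had medians over classes on both sides of 0, and several changed in thinned cells. Sel1l, Syvn1 and Edem1 had medians of 0.0081, 0.04 and 0.05, and Derl2, Herpud1, Ngly1 and Derl1 of −0.26, −0.21, −0.19 and −0.18. In thinned cells, where counts are few, the medians of Syvn1 and Edem1 were 0.38 and 0.36, that of Derl2 was −0.10 and that of Derl1 −0.07. Those of Herpud1 and Ngly1 turned sign, to 0.03 and 0.31. With cells matched on UMIs per cell in bins (depth bins), all 7 medians kept the sign they had without matching. Those of Herpud1, Ngly1, Derl1 and Derl2 were −0.295, −0.23, −0.19 and −0.18, and those of Syvn1, Edem1 and Sel1l were 0.21, 0.20 and 0.11. Derl1, a channel subunit for export to the cytosol, had 26 CPM at 15 days against 84.7 CPM in SC in pericyte-like cells, and 65.5 against 88 CPM in ependymal-like cells. Ngly1, the enzyme that strips N-glycans from exported proteins, had 24.2 CPM at 15 days against 62 CPM in SC in OPC-like cells, a log2 ratio of −1.36 (95% interval −1.93 to −0.82). Derl2 had 59.5 against 80.4 CPM in tanycyte-like cells, and Syvn1 10.1 against 19 CPM in ependymal-like cells. Syvn1 turned to 0.38 in thinned cells of that class.

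Few sensor genes were called. Atf6, Ern1 and Eif2ak3 were called in no class, with medians over classes of 0.01, −0.18 and −0.05. In thinned cells these medians were 0.36, −0.41 and 0.44, and in depth bins 0.08, 0.02 and −0.18, so the medians of Ern1 and Eif2ak3 have no settled sign. Ern1 had enough UMIs in 4 classes only. Over classes the median of Xbp1 was −0.12, but 0.03 in thinned cells and −0.23 in depth bins. Xbp1 was called lower in OPC-like cells, at 110 CPM against 150 CPM in SC, and in oligodendrocyte-like cells, at 56.9 against 80.1 CPM. The counts do not part spliced from unspliced Xbp1.

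In the PERK and ATF4 arm, Atf4 and Ddit3 were called in no class at 15 days, with medians over classes of 0.02 and 0.03. The median of Ddit3 was 0.32 in thinned cells and 0.26 in depth bins, and that of Atf4 was −0.09 and −0.10. Atf4 had 44.6 CPM at 15 days against 42.8 CPM in SC in tanycyte-like cells, and 120 against 124 CPM in microglia-like cells. Ppp1r15a was higher in microglia-like cells, at 156 CPM against 123 CPM in SC, a log2 ratio of 0.34 (95% interval 0.16 to 0.52), and its median over classes was 0.23. Asns was compared in 6 classes and called lower in OPC-like cells, at 36.2 CPM against 50.8 CPM in SC. Its median over those classes was −0.08, but −0.31 in thinned cells and −0.56 in depth bins, where all 6 ratios were below 0. Trib3 and Chac1 had too few UMIs to be compared in any class. Of the 3266 genes compared in every class, 67.2% had a lower median than Atf4. The translocon genes Sec61b and Sec61a1 had medians over classes of 0.0092 and 0.05, and that of Sec61b was −0.11 in thinned cells.

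In neuron-like cells calls at 15 days went both ways. They had 3 members called higher and 3 lower out of 32, where 11.4% of all genes were called higher and 29.8% lower. The members' median was 0.0019, against −0.19 for all genes. Sec61b had 222 CPM at 15 days against 143 CPM in SC, Hsp90b1 602 against 444 CPM and Manf 208 against 156 CPM. Sec61b shares 17.4% of its 50-base words near the transcript end with Gm10320, Gm33666 and Gm5870. Lower were Syvn1, at 24.6 CPM against 36.7 CPM in SC, Sec61a1, at 41.8 against 59.8 CPM, and Sel1l, at 114 against 143 CPM. Syvn1 and Sel1l turned to 0.84 and 0.05 in thinned cells.

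The makeup and quality of the neuron-like class moved with these values. The Snhg11 cluster held 54.4% of it at 15 days against 65.4% in SC, and the Agrp cluster 8.10% against 1.68%. The median mitochondrial share was 7.28% at 15 days against 12% in SC, and the summed level of 18 oligodendrocyte markers was 1006 against 2136 CPM. With the clusters held at a fixed mix the log2 ratio of Sec61b was 0.42 in place of 0.63. Scaling by TMM moved all neuron-like ratios by 0.21.

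Depth and marker levels also moved in other classes. The median depth of tanycyte-like cells was 7589 UMIs at 15 days against 12337 in SC, and that of OPC-like cells 5260 against 6828. It was 3707 against 7548 in endothelial-like, 9651 against 14533 in oligodendrocyte-like and 2829.5 against 4220 in pericyte-like cells. Only COP-like cells were deeper at 15 days, at 12605 against 12354.5. When cells were matched on UMIs per cell in 5 bins, a setting added after the data were seen, the members' medians were −0.23 in tanycyte-like and −0.38 in OPC-like cells, and −0.06 and −0.05 in astrocyte-like and microglia-like cells. In pericyte-like cells the 9 smooth muscle markers summed to 22796 CPM at 15 days against 14184 CPM in SC, and the 11 pericyte markers to 23938 against 32500 CPM. In OPC-like cells the 17 microglia markers summed to 650 against 202 CPM. In COP-like cells the 18 oligodendrocyte markers summed to 56795 against 70541 CPM, and the larger cluster held 61.1% against 68.3% of the class. In microglia-like cells the shallow cluster, with a median of 1611 UMIs, held 19.8% of the class at 15 days against 36.5% in SC. In ependymal-like cells the deep cluster, with a median of 15585.5 UMIs, held 38% against 26.2%. The part of these depths, marker levels and shares in the members' ratios was not tested. Without cells of shared barcodes 70 pairs were again called lower.

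Other genes of the same pathways were compared by lists at 15 days. Of 23 other folding and quality control genes compared in OPC-like cells 3 were called lower, with a median of −0.11, and none of 25 were called in tanycyte-like cells, with a median of −0.04. Other ATF4 and integrated stress genes had medians between −0.15 and 0.02. Immediate-early genes and cytosolic heat shock genes moved with the members in tanycyte-like cells, where 7 of 13 in each list were called lower, at medians of −0.47 and −0.42. In pericyte-like cells the immediate-early median was 0.36, with 6 of 12 called higher, and in neuron-like cells it was 0.45. In neuron-like cells 14 of 29 other translocation and glycosylation genes were called higher, at a median of 0.29, among them Sec61g, at 458 CPM against 243 CPM in SC.

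After 5 days on HFHS few members were called. Of 306 pairs of a member and a class 13 (4.25%) were called lower, against 6.05% of pairs of all genes, and 7 (2.29%) higher, against 4.09%. These counts depended on how cells were weighted: 35 were lower and 25 higher with cells weighted equally, and 40 and 27 with cells matched on depth. In both settings the interval of the plain counts was moved with the ratio. Shares of all genes are not given for them, so these counts cannot be read as particular to the members. The members' medians lay between −0.11 in oligodendrocyte-like cells and 0.03 in COP-like cells, and 6 of 10 lay below the median of all genes.

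The chaperones and isomerases called lower at 5 days outside neuron-like cells were in oligodendrocyte-like, OPC-like and ependymal-like cells. Hspa5 had 410 CPM at 5 days against 558 CPM in SC in oligodendrocyte-like cells, a log2 ratio of −0.44, and 697 against 901 CPM in OPC-like cells, at −0.37. The OPC-like class of the 5-day library also held 3331 CPM of 5 red blood cell markers, against 19.3 CPM in SC, whose part was not tested. Dnajb9 had 44.9 CPM at 5 days against 63.3 CPM in SC in ependymal-like cells, and Manf 301 against 388 CPM. Sdf2l1 had 40.5 against 51.1 CPM there, but its log2 ratio of −0.33 was 0.31 in thinned cells, 0.16 with cells weighted equally and 0.23 in depth bins. Pdia4 had 78 CPM at 5 days against 104 CPM in SC in oligodendrocyte-like cells, and Edem1 15.6 against 10.9 CPM in ependymal-like cells.

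Outside the chaperones and isomerases, 5-day calls fell on single genes of several arms. Xbp1 had 155 CPM at 5 days against 124 CPM in SC in endothelial-like cells, and 64 against 80.1 CPM in oligodendrocyte-like cells, where the log2 ratio of −0.33 was 0.37 in thinned cells. Atf6 had 26.3 CPM at 5 days against 40.2 CPM in SC in astrocyte-like cells, while its 15-day level was 40 CPM. Ngly1 had 43.8 against 62 CPM in OPC-like cells, and Derl1 52.7 against 84.7 CPM in pericyte-like cells. Ppp1r15a had 49.9 CPM at 5 days against 35.7 CPM in SC in tanycyte-like cells, and 21.1 against 60.3 CPM in pericyte-like cells.

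Neuron-like cells had 4 members higher and 2 lower at 5 days, where 9.31% of all genes were called higher and 21.1% lower. Ppp1r15a had 15.7 CPM at 5 days against 8.21 CPM in SC, Sec61b 211 against 143 CPM, Sdf2l1 43.9 against 31 CPM and Asns 65.4 against 48.8 CPM. P4hb had 39 CPM at 5 days against 52 CPM in SC, and Atf4 54.7 against 69.6 CPM. With clusters held at a fixed mix the ratio of Sec61b was 0.06 in place of 0.56, and that of Asns was −0.81 when cells were matched on depth and 0.11 in thinned cells. The ratio of Sdf2l1 was 0.50, but −0.37 in thinned cells. The Agrp cluster held 11.3% of the class at 5 days against 1.68% in SC.

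Promoter elements were set beside the ratios as a description. Over the 10 members with an ERSE or ERSE-II, the middle of the median log2 ratios at 15 days was −0.30, and 9 of the 10 were below 0, Syvn1 being the other. Over the 17 compared members with neither, it was −0.08, and 10 were below 0. The 10 with an element are 7 chaperones, Pdia6, Herpud1 and Syvn1, so the element goes with the list. Pdia3 and Pdia4, among the lowest members, held no exact ERSE or ERSE-II in the window printed or searched. The printed stretch of Pdia3 does hold CCAAT, 9 bases and then CCACA, which departs from an ERSE in the last base. Such near matches were not searched for in any gene. At 5 days the middle values were −0.07 and −0.04.

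**Figure D4:**
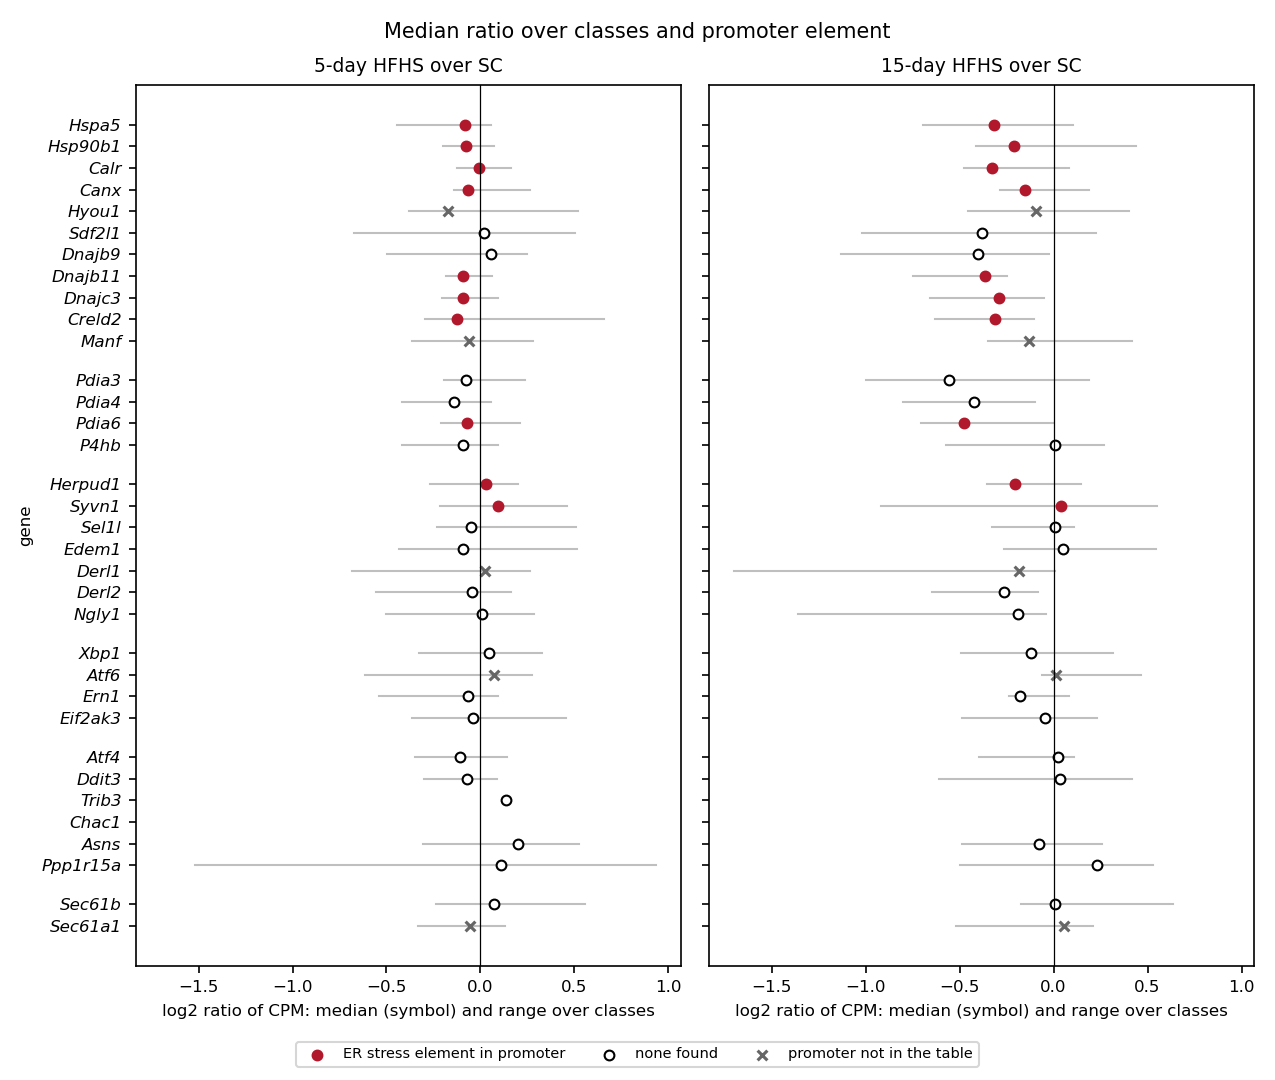
Median log2 ratio over classes (symbols) with the range over classes (lines) for each gene, in the 5-day (left) and the 15-day (right) HFHS library over SC. Filled symbols mark an ERSE or ERSE-II in the promoter window, open symbols none, and crosses genes with no window in the table. At 15 days 9 of 10 filled symbols lie below 0.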

How the data were processed

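The values deposited for each gene in each barcode are unscaled UMI counts, whole numbers in every file. They were made with Cell Ranger, SAMtools and Scanpy 1.4.4 on GRCm38, per the submitters' processing notes, and the headers give software version 3.1.0. The SC library held 7116 barcodes and 59315940 UMIs, the 5-day library 6204 and 52735770, and the 15-day library 7823 and 43193012. The members, lists and settings were chosen with earlier results of these data known.

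Barcodes under 500 genes or over 20% mitochondrial UMIs were dropped. Scrublet called no SC barcode a doublet, so the highest-scoring 0.8% per 1000 barcodes were removed in each library, 291 (SC), 211 (5-day) and 344 (15-day) barcodes. Cells were clustered together with Scanpy 1.11.5 (3000 variable genes without the members, 40 components, 15 neighbours, Leiden resolution 1). Clusters were named when 3 markers of a set stood among their 50 leading genes. A cluster whose markers lay below 0.33 of the highest cluster's level stayed unnamed, a limit set after the data were seen.

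Sums of UMIs over the cells of a class in a library were formed, and each class was compared with the mean of the other 9 by edgeR 4.0.16 (quasi-likelihood, TMM, library as block, Benjamini-Hochberg), the block since the classes come from the same 3 libraries. DESeq2 1.42.0 was an alternative. Diet ratios use CPM with exact conditional binomial 95% intervals, which cover counting error only, and were repeated with each cell thinned to 1000 UMIs. The code was tested on simulated data. Named are, in each class, up to 4 members with the largest called folds, up to 4 called higher and 4 called lower in each diet comparison, and members called in at least 4 classes. How reads of overlapping genes were assigned is not given in the sources used here. Hsp90b1 overlaps Gm15344 and Gm25745, Manf overlaps Rbm15b and Pdia4 overlaps Mir704 on the same strand. Sec61b, Derl1 and Dnajb9 share 17.4%, 6.01% and 2.57% of their 50-base words near the transcript end with other genes. Hsp90b1, Calr and Hyou1 share 0.747%, 0.374% and 0.25%. The counts of all these members are less certain. Promoter sequences came from RefSeq (GRCm38.p6).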

Additional observations from a re-analysis of the deposited data

Results flagged for a closer look

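In 5 genes a called ratio was higher in 1 class and lower in another under the same diet comparison. The differences between classes were not tested, since each diet has 1 library. At 15 days the log2 ratio over SC of Hsp90b1 was 0.437 in neuron-like and −0.413 in OPC-like cells. Manf stood at 0.419 in neuron-like and −0.348 in ependymal-like cells. At 5 days Sdf2l1 stood at 0.502 in neuron-like and −0.333 in ependymal-like cells, but both signs turned in thinned cells. Xbp1 at 5 days was 0.328 in endothelial-like and −0.325 in oligodendrocyte-like cells, the second turning in thinned cells. Ppp1r15a at 5 days was 0.934 in neuron-like and −1.52 in pericyte-like cells.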

How the results depend on the processing

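Each class contrast and diet ratio was recomputed under the alternatives, and the causes of the moves below were not tested. Class against the other classes, members were called in 237 cases (117 higher, 120 lower). Thinned to 1000 UMIs there were 141 (62 lower), and leaving out 1 library gave 204 to 224 (100 to 112 higher, 104 to 112 lower). Without the replicate block of libraries there were 221. No paired analysis was possible because the diets have 1 library each and share only replicate number 1. Pairs called lower at 15 days, 70, became 34 thinned and 21 at a fold of 1.5. Pairs called higher at 15 days, 4, became 20 with cells weighted equally, 11 by TMM and 11 by median of ratios, 2 at 10% mitochondrial UMIs, 1 at a fold of 1.5 and 16 in depth bins. Pairs called lower at 5 days, 13, became 7 thinned, 35 weighted equally, 3 at a fold of 1.5 and 40 in depth bins. Pairs called higher at 5 days, 7, became 2 thinned, 25 weighted equally, 12 by TMM, 4 at a fixed mix, 1 at a fold of 1.5 and 27 in depth bins. In the equal-weight, fixed-mix and depth-bin settings the interval of the plain counts was moved with the ratio. Shares of all genes are not given beside these counts of pairs, so the moves cannot be read as particular to the members. The count of 9 of 10 classes below all genes at 15 days held in all 16 alternatives, and that of 6 at 5 days ranged over 5 to 8. Among these, TMM, median of ratios and the fold of 1.5 could not change either count. The scalings move all genes of a class alike, and the fold changes calls only.

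Single log2 ratios that reversed, thinned unless named, were Syvn1 at 15 days in neuron-like cells (0.844, 0.248 weighted equally, 0.283 in depth bins) and ependymal-like cells (0.375), Sel1l in neuron-like cells (0.0524) and Dnajb9 in OPC-like cells (0.253). At 5 days they were Sdf2l1 in neuron-like cells (−0.369) and ependymal-like cells (0.312, 0.156 weighted equally, 0.225 in depth bins), Asns in neuron-like cells (−0.435 weighted equally, −0.809 in depth bins) and Xbp1 in oligodendrocyte-like cells (0.372). The OPC-like members' median at 5 days became 0.0315 thinned. Each ratio of a named member was counted once under each alternative. Of the values that did not reverse, 759 kept direction and call and 188 kept direction only.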

Other observations

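A few genes of the related lists, chosen after their values were seen, were called at 15 days in more classes than most members. Sec61g, the gamma subunit of the translocon, was called higher in 9 classes, while the beta subunit gene Sec61b was called higher in neuron-like cells alone and the alpha subunit gene Sec61a1 in no class. It had 725 CPM at 15 days against 537 CPM in SC in tanycyte-like cells, 384 against 268 CPM in microglia-like cells and 458 against 243 CPM in neuron-like cells. The 5-day levels in these classes were 570, 275 and 348 CPM. Sec63, a partner of BiP at the translocon, was called lower in 6 classes.

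Erp44, a thiol protein that returns unassembled cargo to the ER, was called lower in 7 classes, with 54.3 CPM at 15 days against 94.8 CPM in SC in OPC-like cells and 51.8 against 80.1 CPM in COP-like cells. The cargo receptor gene Tmed2 was called lower in 7 classes and Herpud2 in 5. Among single genes with the largest called ratios of their lists, Mcfd2 had 32.6 CPM at 15 days against 68.9 CPM in SC in pericyte-like cells, and Egr1 3.78 against 13 CPM in ependymal-like cells. These are values of 1 library per diet, with no test.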
